A study of Mus musculus with 6 samples.

Results

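The 9 genes described here encode the NF-kB subunits (*Nfkb1*, *Nfkb2*, *Rel*, *Rela* and *Relb*) and the inhibitors that hold them in check (*Nfkbia*, *Nfkbib*, *Nfkbie* and *Tnfaip3*). They were taken by name, with a rule that uses no measured value, and all 9 were found among 23420 genes in the table. RNAseq had been carried out on 6 libraries of primary mouse CD4+ T cells. Of these, 2 were labelled *Dyrk1a* shRNA, 2 were treated with harmine on top of a control hairpin, and 2 were controls with a control hairpin alone. All cells were CD4+CD62L+ splenocytes of Balb/c mice aged 12 weeks, purified with magnetic beads, and all were stimulated on plates coated with anti-CD3 and anti-CD28. At 24 h they received virus with a *Dyrk1a* or a control hairpin. Fresh medium with IL-2 came 24 h later, and the cells were harvested 48 h after that, as the labels have it. The methods of the study instead describe neutral cultures as fed without added IL-2. In the harmine group this medium held harmine at 3.7 µM, and these cells carried a control hairpin. The *Dyrk1a* shRNA cells received no harmine. Harmine is a plant alkaloid that inhibits DYRK1A, a kinase that phosphorylates NFAT, and an shRNA is a hairpin that directs the breakdown of a matching mRNA. No cytokine that polarizes T helper cells was described for these cultures. The sources do not say which hairpins these libraries carried, nor whether replicates came from separate mice or cultures, so p-values measure only the spread between these samples, which may be technical.

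NF-kB proteins are dimeric transcription factors that resting T cells keep in the cytoplasm, bound to IκB proteins. Signals from the T cell receptor and CD28 pass through protein kinase C theta to the IKK complex, which phosphorylates IκB and so marks it for degradation, and the freed dimers move to the nucleus. RELA and c-REL with p50, the product of *Nfkb1*, serve this canonical route, whereas RELB with p52, the product of *Nfkb2*, serves a slower route that depends on the kinases NIK and IKKα. Dimers induce several of their own inhibitors, which closes a feedback loop, and in T cells c-REL is known for its part in *Il2* and *Foxp3* expression. Protein amount, degradation and nuclear entry were not measured in these libraries, which hold transcript levels only.

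The sequences that NF-kB dimers bind, kB sites, can be seen at the starts of several of these genes. In the RefSeq promoter windows on GRCm38.p6 (250 bases before to 50 after each start site), 7 of the 9 genes had an entry, with 10 promoters between them, and *Nfkb1* and *Relb* had none. The motif GGGNNNTTCC, read on both strands, was found in 8 of these 10 promoters (80%), beside 5.56% of 32851 promoters over all genes. Overlapping promoters of *Nfkb2* share a match, so the same site counts for each of them. By gene the motif was found in 5 of 7 (*Nfkb2*, *Nfkbia*, *Nfkbie*, *Rel* and *Tnfaip3*, not *Nfkbib* or *Rela*), beside 6.31% of 27025 genes. The stricter GGGNNTTTCC, whose matches are all matches of the first motif too, was found in 4 of the 7 genes, beside 1.89% of all genes. The stretches around a match in each of the 5 genes are printed 5′ to 3′ on the strand of the gene, with the match in capitals, to show which kB-like letters these genes carry.

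Nfkbia: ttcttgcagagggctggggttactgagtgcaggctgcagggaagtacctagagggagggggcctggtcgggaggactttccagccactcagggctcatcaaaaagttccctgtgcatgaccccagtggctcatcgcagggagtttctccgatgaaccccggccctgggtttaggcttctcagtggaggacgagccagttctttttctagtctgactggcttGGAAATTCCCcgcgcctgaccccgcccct
Tnfaip3: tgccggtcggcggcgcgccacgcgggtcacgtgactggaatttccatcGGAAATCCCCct
Nfkb2: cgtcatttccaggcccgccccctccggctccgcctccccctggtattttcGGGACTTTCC
Rel: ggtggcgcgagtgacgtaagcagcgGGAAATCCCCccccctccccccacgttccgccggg
Nfkbie: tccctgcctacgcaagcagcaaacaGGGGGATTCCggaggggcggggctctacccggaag

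For *Nfkbia*, the 250 bases upstream of the start site on the minus strand (chr12:55492648-55492897) hold GGAAATTCCC, whose first base lies at -29 (0 is the start site itself). For *Tnfaip3*, 60 bases upstream of a start site on the minus strand (chr10:19015411-19015470) hold GGAAATCCCC at -12. The *Nfkb2* stretch on the plus strand (chr19:46305655-46305714) runs from 40 bases before one of its start sites to 19 after it and ends with GGGACTTTCC at 10. The *Rel* stretch on the minus strand (chr11:23771026-23771085) holds GGAAATCCCC at -91 and the *Nfkbie* stretch on the plus strand (chr17:45555569-45555628) holds GGGGGATTCC at -106. None of these stretches overlaps a GENCODE exon except that of *Nfkb2*, of which 19 bases do. A match is a description of letters, and binding was not measured.

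Sequencing was shallow, at 2678872 and 3274050 counts for *Dyrk1a* shRNA, 3441063 and 3747648 for harmine, and 1743428 and 1096345 for control. Levels are given as CPM, the counts of a gene scaled to a common library total with TMM factors, with replicate 1 before replicate 2. Differences are given as log2 fold changes from edgeR's quasi-likelihood test, with p-values adjusted by the method of Benjamini and Hochberg over the 10607 genes with enough counts to test, which include all 9. The control replicates lay farther apart than the others, with a chi-square per degree of freedom of 10.1 between them, against 4.02 for harmine and 3.69 for *Dyrk1a* shRNA. The number of genes called against control depended on them, at 439 for *Dyrk1a* shRNA and 291 for harmine without control replicate 2, as opposed to 2 and 1 with all libraries. All 10 CD4 T cell markers were present in each library, with summed levels of 3505 to 3706 CPM.

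*Dyrk1a*, the gene targeted by the hairpin, had 60.2 and 61.9 CPM in the libraries labelled *Dyrk1a* shRNA, 74.8 and 77.6 CPM with harmine, and 58.4 and 82.7 CPM in the controls. The *Dyrk1a* shRNA values lay within the range of the controls and below both harmine values. The log2 fold change was -0.19 against control (standard error 0.21, adjusted p = 0.835, edgeR) and -0.32 against harmine (standard error 0.20, adjusted p = 0.880, edgeR). Against control it was 0.07 without control replicate 2 and -0.45 without control replicate 1, so that 1 library set its sign. A lower level of the target was not seen beyond the spread in the libraries labelled *Dyrk1a* shRNA, and every direction given for them rests on the label.

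Levels of the 9 transcripts were set in order per kilobase of the longest coding transcript. *Nfkbia* (IκBα, the inhibitor that is degraded and made again within one round of signalling) came first, with 81.7 CPM per kilobase in the lowest, 97.4 at the median and 114 in the highest library. *Nfkb1* (p105, the precursor of p50) followed at 64.1, 73.0 and 85.8 CPM per kilobase, and *Rela* (p65, a subunit with a transactivation domain) at 32.6, 34.5 and 45.3 CPM per kilobase. *Relb* had 19.5, 22.2 and 39.0 CPM per kilobase and *Nfkb2* (p100, the precursor of p52) 9.96, 13.4 and 20.4 CPM per kilobase. The remaining inhibitors were lower, with medians of 13.2 CPM per kilobase for *Tnfaip3* (A20, a ubiquitin-editing enzyme that shuts off signalling to IKK), 10.7 for *Nfkbib* (IκBβ) and 7.34 for *Nfkbie* (IκBε). *Rel* (c-REL) came last, with a median of 0.559 CPM per kilobase. The ranges of neighbours in this order overlapped except between *Nfkb1* and *Rela* and between *Nfkbie* and *Rel*. With the median length of the coding transcripts in place of the longest, *Nfkb1* came before *Nfkbia*, and *Nfkb2* moved to position 7 behind *Tnfaip3* and *Nfkbib*, so the order in the middle depends on which transcript the cells used.

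**Figure D1:**
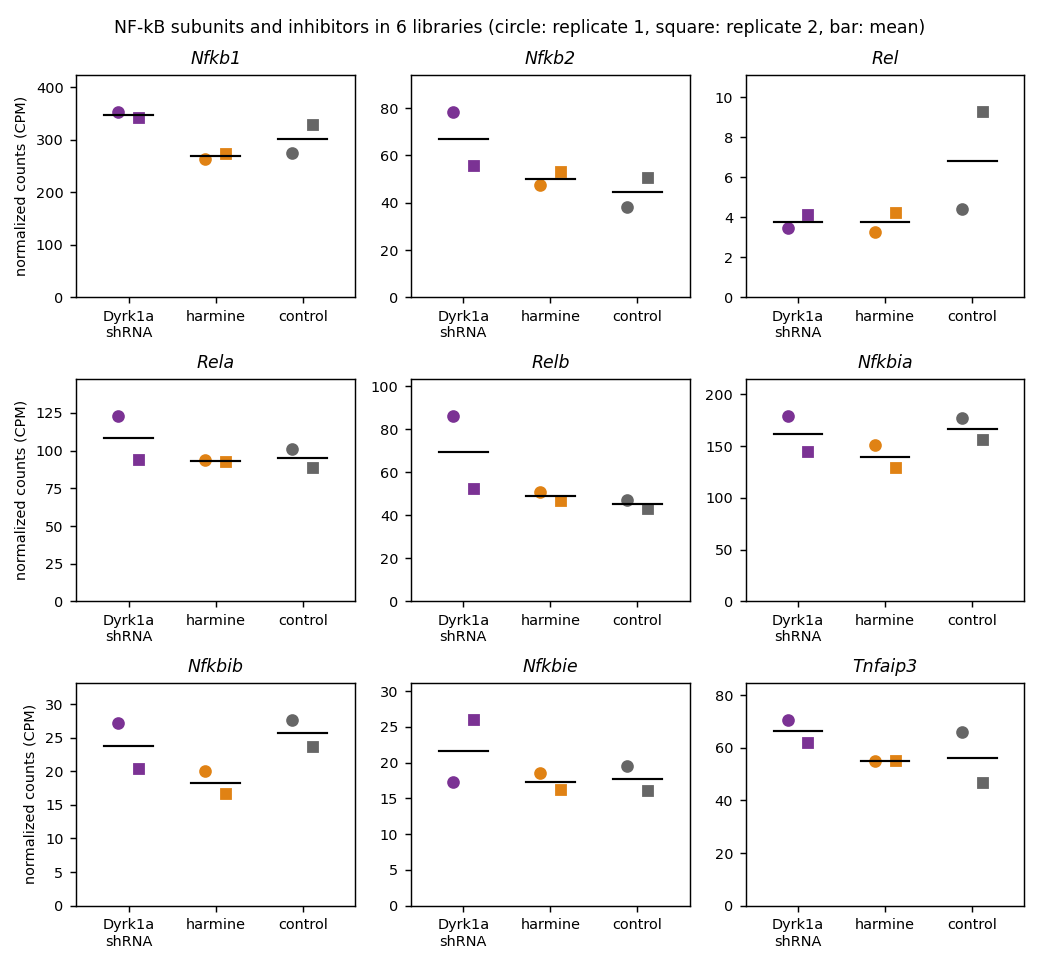
Normalized counts (CPM, vertical axes from 0) of the 9 genes in the *Dyrk1a* shRNA, harmine and control libraries, with a circle for replicate 1, a square for replicate 2 and a bar for the mean. *Relb* and *Nfkb2* were highest in *Dyrk1a* shRNA replicate 1, at 86.2 and 78.5 CPM, and *Rel* in control replicate 2, at 9.29 CPM.

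The comparison of harmine with control asks what the drug did in cells with a control hairpin. None of the 9 genes passed the adjusted threshold, beside 0.00943% of all genes tested. None had an unadjusted p under 0.05, beside 2.22% of genes higher and 3.07% lower. Of the 9, 2 had a log2 fold change above 0, with a median of -0.05 over the 9, beside -0.019 over all genes. Groups did not overlap for 0 higher and 4 lower members (*Nfkb1*, *Rel*, *Nfkbia* and *Nfkbib*), beside 16.4% of all genes higher and 15.9% lower. In bulk RNA, fewer cells of a type and less RNA per cell cannot be told apart.

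*Nfkbib*, the inhibitor that binds RELA and c-REL dimers and is degraded more slowly than IκBα, had the smallest p of the 9. It had 20.0 and 16.6 CPM with harmine, against 27.6 and 23.6 CPM in the controls. Both harmine libraries were below both controls, with a log2 fold change of -0.50 (standard error 0.28, 95% interval -1.08 to 0.085, adjusted p = 0.928, edgeR). *Nfkbib* (GRCm38, chr7:28758251-28767512, minus strand) overlaps *Sirt2* and *Ccer2* on the other strand, and no strand was stated for the library, so that reads in the overlap cannot be told apart. *Sirt2*, a deacetylase, had a log2 fold change of -0.05 in the same comparison. After all libraries were thinned to the size of the smallest, the fold change of *Nfkbib* was -0.26.

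*Nfkbia* had 151 and 129 CPM with harmine, against 177 and 156 CPM in the controls. The groups did not overlap, and the log2 fold change was -0.25 (standard error 0.19, adjusted p = 0.938, edgeR), or -0.15 without harmine replicate 2 and -0.17 without control replicate 1. *Nfkb1* had 264 and 273 CPM with harmine, against 274 and 328 CPM in the controls, so that the higher harmine value nearly met the lower control value (log2 fold change -0.16, standard error 0.18, or -0.027 without control replicate 2 and -0.29 without control replicate 1). *Rel* had 3.28 and 4.22 CPM with harmine, against 4.39 and 9.29 CPM in the controls. These levels rest on 11 and 16 counts with harmine and on 7 and 11 counts in the controls, and control replicate 2 stood above the other libraries. The fold change of *Rel* was -0.79 (standard error 0.52), or -0.22 without control replicate 2 and -1.30 without control replicate 1.

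The other members overlapped between harmine and control. *Rela* had 93.6 and 92.7 CPM with harmine, against 101 and 88.6 CPM in the controls, and its log2 fold change was -0.03 (95% interval -0.45 to 0.39). *Relb* had 51.0 and 46.7 CPM with harmine, against 47.1 and 43.0 CPM in the controls (log2 fold change 0.11, 95% interval -0.42 to 0.64). *Nfkb2* had 47.7 and 52.8 CPM with harmine, against 38.3 and 50.6 CPM in the controls (log2 fold change 0.19, 95% interval -0.31 to 0.70, and -0.02 without control replicate 1). *Nfkbie*, whose product binds mainly c-REL and RELA dimers, had 18.5 and 16.1 CPM with harmine, against 19.5 and 16.0 CPM in the controls (log2 fold change -0.05, 95% interval -0.71 to 0.60). *Tnfaip3* had 54.8 and 54.9 CPM with harmine, between the 65.9 and 46.4 CPM of the controls (log2 fold change -0.05, 95% interval -0.50 to 0.41). The intervals of all members but *Nfkbib* and *Rel* left out a doubling and a halving.

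Between *Dyrk1a* shRNA and control, which asks for the effect of the hairpin, the subunits of the slower route, *Nfkb2* and *Relb*, had the smallest p of the family, and again none of the 9 passed the adjusted threshold, beside 0.0189% of all genes. At an unadjusted p under 0.05, 2 of the 9 were higher (*Nfkb2* and *Relb*) and 0 lower, beside 3.1% of all genes higher and 4.59% lower. Under the Wald test of DESeq2 this count of 2 fell to 0 (unadjusted p = 0.055 for *Nfkb2* and 0.057 for *Relb*). It was also 0 in edgeR with trends of length and GC content removed from each library. Groups did not overlap for 3 higher members (*Nfkb1*, *Nfkb2* and *Relb*) and 1 lower member (*Rel*), beside 18.5% and 16.9% of all genes. Of the 9 fold changes, 6 were above 0, with a median of 0.21, beside -0.013 over all genes.

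*Relb* had 86.2 and 52.2 CPM in the *Dyrk1a* shRNA libraries, against 47.1 and 43.0 CPM in the controls. Both *Dyrk1a* shRNA libraries were above both controls, but replicate 1 was far above replicate 2. The mean was 69.2 ± 24.1 CPM with *Dyrk1a* shRNA and 45.1 ± 2.85 CPM in the controls (SD, n = 2 each), and the log2 fold change was 0.60 (standard error 0.25, 95% interval 0.078 to 1.13, adjusted p = 0.612, edgeR). It was 0.21 without *Dyrk1a* shRNA replicate 1 and 0.92 without *Dyrk1a* shRNA replicate 2. *Nfkb2*, whose product p100 also retains RELB in the cytoplasm until it is processed, had 78.5 and 55.4 CPM in the *Dyrk1a* shRNA libraries, against 38.3 and 50.6 CPM in the controls. The lower *Dyrk1a* shRNA value lay just above the higher control. Its log2 fold change was 0.60 (standard error 0.24, 95% interval 0.098 to 1.10, adjusted p = 0.612, edgeR), or 0.33 without *Dyrk1a* shRNA replicate 1 and 0.38 without control replicate 1, and 0.83 and 0.80 without the other replicate of each.

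*Relb* (GRCm38, chr7:19606217-19629438, minus strand) overlaps no other annotated gene. *Nfkb2* (chr19:46304320-46312385, plus strand) overlaps *Psd* and *AC114539.1* on the other strand, and *Psd* had 2 to 10 counts per library. Base composition went along with this difference. *Relb*, *Nfkb2* and *Rela* had transcripts with 61.1%, 59.4% and 59.4% GC, beside a median of 49.97% over genes tested, and across 10531 genes a higher GC content came with a higher fold change for *Dyrk1a* shRNA against control (rho of Spearman 0.340, beside 0.00168 for harmine against control, a description across genes that share the same libraries). With trends of length and GC content removed from each library, a setting chosen after seeing the data, the log2 fold change was 0.32 for *Nfkb2*, 0.38 for *Relb* and -0.08 for *Rela*. The part of base composition in the result was not tested further.

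**Figure D2:**
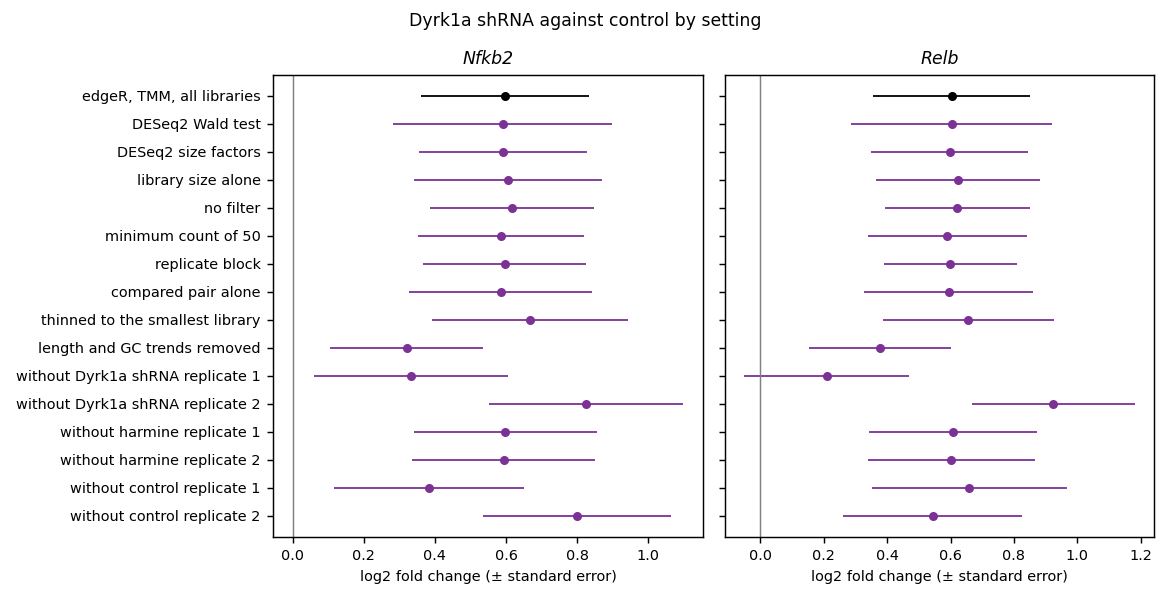
Log2 fold change of *Nfkb2* (left) and *Relb* (right) between *Dyrk1a* shRNA and control, with its standard error, in the fit of all libraries (black) and under each other setting (purple). The values stayed above 0 and ran from 0.32 to 0.83 for *Nfkb2* and from 0.21 to 0.92 for *Relb*.

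Among the other subunits, *Nfkb1* (chr3:135584655-135691547, minus strand, with the gene model *Gm43430* inside it) had 353 and 341 CPM in the *Dyrk1a* shRNA libraries, against 274 and 328 CPM in the controls. The groups did not overlap, and the log2 fold change was 0.21 (standard error 0.18, adjusted p = 0.780, edgeR), or 0.07 without control replicate 1, 0.35 without control replicate 2 and 0.06 with length and GC trends removed. *Rela* had 123 and 94.0 CPM with *Dyrk1a* shRNA, against 101 and 88.6 CPM in the controls, and here the groups overlapped (log2 fold change 0.19, standard error 0.20). *Rel* had 3.45 and 4.13 CPM with *Dyrk1a* shRNA, on 9 and 14 counts, against 4.39 and 9.29 CPM in the controls. Its fold change of -0.78 (standard error 0.53) was -0.20 without control replicate 2.

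All 4 inhibitors overlapped between *Dyrk1a* shRNA and control. *Nfkbia* had 179 and 144 CPM with *Dyrk1a* shRNA, against 177 and 156 CPM in the controls, a log2 fold change of -0.05 with a 95% interval of -0.45 to 0.36. *Nfkbib* had 27.2 and 20.3 CPM with *Dyrk1a* shRNA, against 27.6 and 23.6 CPM in the controls (-0.13, interval -0.71 to 0.45). *Nfkbie* had 17.2 and 25.9 CPM with *Dyrk1a* shRNA, against 19.5 and 16.0 CPM in the controls (0.28, interval -0.36 to 0.93), and its *Dyrk1a* shRNA replicates lay farther apart than the group means. *Tnfaip3* had 70.5 and 61.9 CPM with *Dyrk1a* shRNA, against 65.9 and 46.4 CPM in the controls (0.22, interval -0.24 to 0.67). The value was 0.0060 without control replicate 2 and 0.50 without control replicate 1. Leaving out *Dyrk1a* shRNA replicate 1 gave 0.13.

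Set against harmine, the *Dyrk1a* shRNA libraries had the higher fitted level for all 9 genes, with a median log2 fold change of 0.34, beside -0.0011 over all genes. The adjusted threshold was passed by none of the 9, beside 0.00943% of all genes. *Relb* alone had an unadjusted p under 0.05, higher with *Dyrk1a* shRNA, beside 2.91% of all genes higher and 2.82% lower. For 6 members (*Nfkb1*, *Nfkb2*, *Rela*, *Relb*, *Nfkbib* and *Tnfaip3*) both *Dyrk1a* shRNA libraries were above both harmine libraries, and for 0 members below, beside 20.2% of all genes above and 20.8% below. The 3 comparisons share libraries, so that a member that was low with harmine enters both comparisons with that group.

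*Relb* had 86.2 and 52.2 CPM with *Dyrk1a* shRNA, against 51.0 and 46.7 CPM with harmine, a log2 fold change of 0.49 (standard error 0.22, 95% interval 0.016 to 0.97, adjusted p = 0.852, edgeR). The gap between the nearer libraries was small, and without *Dyrk1a* shRNA replicate 1 the fold change was 0.10. *Nfkb1*, with 353 and 341 CPM against 264 and 273 CPM with harmine, had replicates that lay close together in both groups (0.37, standard error 0.18, adjusted p = 0.859, edgeR), and it stayed between 0.35 and 0.40 with any 1 library left out. *Nfkb2*, with 78.5 and 55.4 CPM against 47.7 and 52.8 CPM, had a fold change of 0.41 (standard error 0.21), or 0.14 without *Dyrk1a* shRNA replicate 1. *Tnfaip3* had 70.5 and 61.9 CPM with *Dyrk1a* shRNA, against 54.8 and 54.9 CPM with harmine (0.27, standard error 0.20). *Nfkbib* had 27.2 and 20.3 CPM with *Dyrk1a* shRNA, against 20.0 and 16.6 CPM with harmine (0.37, standard error 0.25), and its overlapping neighbour *Sirt2* had a fold change of 0.18. *Rela*, *Nfkbia*, *Nfkbie* and *Rel* had fold changes of 0.22, 0.21, 0.34 and 0.02, each with an interval that spans 0. Without *Dyrk1a* shRNA replicate 1, *Rela* was at 0.015, *Nfkbia* at 0.044 and *Nfkbib* at 0.16. Higher GC content came with higher fold changes here too (rho of Spearman 0.416 across genes), and with the trends removed the fold change was 0.32 for *Relb*, 0.25 for *Nfkb1* and 0.19 for *Nfkb2*.

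**Figure D3:**
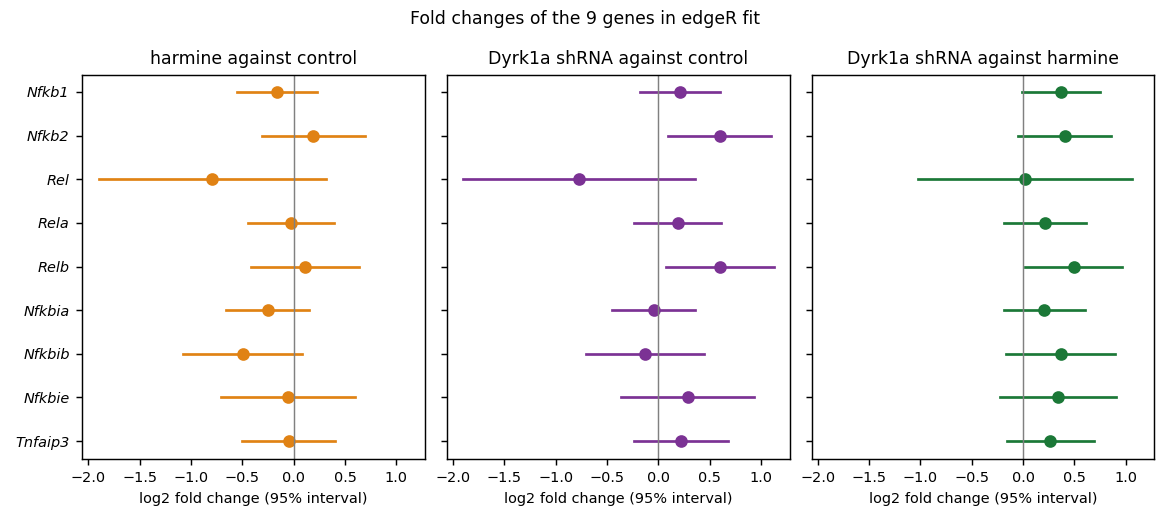
Log2 fold changes of the 9 genes with 95% intervals for harmine against control, *Dyrk1a* shRNA against control and *Dyrk1a* shRNA against harmine. The intervals of *Nfkb2* and *Relb* in the second panel (0.098 to 1.10 and 0.078 to 1.13) and that of *Relb* in the third (0.016 to 0.97) lie above 0, and no adjusted p was below 0.612.

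The balance between subunits and inhibitors was read within each library from summed levels per kilobase. The 5 subunits summed to 191 and 156 CPM per kilobase with *Dyrk1a* shRNA, 134 and 136 with harmine, and 136 and 146 in the controls, so that both *Dyrk1a* shRNA libraries were above the others. The 4 inhibitors summed to 150 and 126 CPM per kilobase with *Dyrk1a* shRNA, 125 and 109 with harmine, and 148 and 128 in the controls, where both harmine libraries lay below all others, though narrowly below *Dyrk1a* shRNA replicate 2. Inhibitors per subunit came to 0.785 and 0.807 with *Dyrk1a* shRNA, 0.933 and 0.800 with harmine, and 1.10 and 0.873 in the controls. *Dyrk1a* shRNA lay below both controls, whereas harmine overlapped with either group. The sum of *Relb* and *Nfkb2* over that of *Rela* and *Nfkb1*, that is, the subunits of the slower route over those of the canonical one, was 0.453 and 0.324 with *Dyrk1a* shRNA, 0.360 and 0.347 with harmine, and 0.302 and 0.291 in the controls. All 4 *Dyrk1a* shRNA and harmine libraries were above both controls, and *Dyrk1a* shRNA replicate 1 stood apart. These sums are values without a test, since they join chosen genes.

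**Figure D4:**
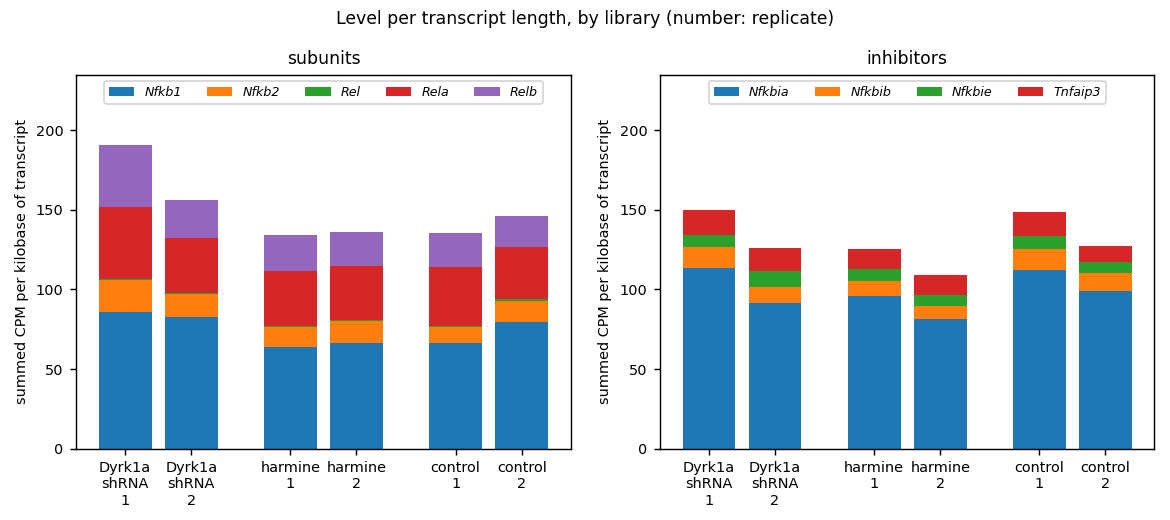
Summed CPM per kilobase of transcript in each library, for the 5 subunits (left) and the 4 inhibitors (right), with bars stacked by gene and axes from 0. *Nfkb1* made up 44.9% to 54.5% of the subunits and *Nfkbia* 72.6% to 77.6% of the inhibitors in every library, and *Dyrk1a* shRNA replicate 1 had the highest subunit sum, 191.

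The same libraries hold the wider pathway, taken from lists of named genes. In the fit of all libraries, no gene of the pathway lists described here passed the adjusted threshold in any of the 3 comparisons (edgeR, Benjamini-Hochberg). Over all 10607 genes tested, 5040 were above 0 for harmine against control, 5128 for *Dyrk1a* shRNA against control and 5289 for *Dyrk1a* shRNA against harmine. Among 6 other IκB proteins and their partners, all tested, 4 were above 0 in each comparison. *Nfkbiz*, a nuclear IκB that acts as a coactivator, had 102 and 99.3 CPM with *Dyrk1a* shRNA, 139 and 135 with harmine, and 108 and 120 in the controls. Both harmine libraries were highest, and the log2 fold change was -0.45 (standard error 0.17, adjusted p = 0.830, edgeR) for *Dyrk1a* shRNA against harmine. *Bcl3*, a nuclear IκB that pairs with p50 and p52 homodimers, had 304 and 260 CPM with *Dyrk1a* shRNA, 268 and 263 with harmine, and 226 and 208 in the controls. The *Dyrk1a* shRNA and control groups did not overlap (0.37, standard error 0.18, and 0.19 with length and GC trends removed). *Nkiras2*, which slows the degradation of IκB, had 0.28 (standard error 0.21) for *Dyrk1a* shRNA against control, and *Nfkbil1* had 0.28 (standard error 0.27) for *Dyrk1a* shRNA against harmine. Without *Dyrk1a* shRNA replicate 1 these values were 0.050 and 0.022, and without *Dyrk1a* shRNA replicate 2 they were 0.48 and 0.53. *Nfkbil1* was also at 0.50 without harmine replicate 1 and 0.095 without harmine replicate 2.

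Of the signalling genes upstream, the 10 of the IKK complex and its kinases had 7 above 0 with harmine against control, 6 with *Dyrk1a* shRNA against control and 4 between them. *Chuk*, which encodes IKKα, had 53.6 and 59.3 CPM with *Dyrk1a* shRNA, against 59.6 and 102 CPM in the controls, where control replicate 2 stood alone (-0.50, standard error 0.24, or -0.072 without that library and -0.86 without control replicate 1). *Map3k7*, the kinase TAK1, had -0.37 for *Dyrk1a* shRNA against harmine, *Tab3*, its adaptor, -0.38 in the same comparison, and *Tab1* 0.36 for *Dyrk1a* shRNA against control. *Map3k7* was at -0.24 without harmine replicate 2. *Tab3* was at -0.089 without *Dyrk1a* shRNA replicate 1 and -0.82 without replicate 2, while *Tab1* was at 0.83 without control replicate 1, 0.051 without control replicate 2 and 0.088 with length and GC trends removed. *Prkcq* (PKC theta) and the kinase *Pdpk1* had -0.31 and -0.20 for harmine against control. Leaving out control replicate 2 gave -0.040 for *Prkcq* and 0.14 for *Pdpk1*. Leaving out control replicate 1 gave -0.56 for *Prkcq* and -0.50 for *Pdpk1*. *Prkcq* was also at -0.086 without harmine replicate 1 and -0.59 without harmine replicate 2. Of 9 adaptors, *Tradd*, *Traf2* and *Ripk1*, which relay signals of the TNF receptor, had 0.47, 0.41 and 0.37 for *Dyrk1a* shRNA against harmine, none with an unadjusted p under 0.05, and *Birc2* (cIAP1) had 0.36 for harmine against control. *Ripk1* was at 0.62 without *Dyrk1a* shRNA replicate 1 and 0.061 without replicate 2, and *Birc2* at 0.090 without control replicate 1 and 0.65 without control replicate 2. After thinning, *Ripk1* was at 0.14 and *Traf2* at 0.12.

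Of 14 genes listed as ubiquitin editing partners, among them those that build linear ubiquitin chains, 13 were tested. Of these, 10 were above 0 for *Dyrk1a* shRNA against control, with a median of 0.10, and 11 for *Dyrk1a* shRNA against harmine, with a median of 0.12. For harmine against control 7 were above 0. Over all 10607 genes tested, 5128, 5289 and 5040 were above 0 in these comparisons, in this order. *Rnf31* (HOIP), the catalytic part of the complex that builds linear ubiquitin chains on NEMO, had 100 and 95.2 CPM with *Dyrk1a* shRNA, 76.6 and 89.5 with harmine, and 61.5 and 67.5 in the controls. Groups did not overlap in any comparison. The log2 fold change of *Dyrk1a* shRNA against control was 0.60 (standard error 0.20, adjusted p = 0.612, edgeR), or 0.32 with length and GC trends removed. That of harmine against control was 0.37 (standard error 0.20). *Rbck1* (HOIL-1), a partner in this complex, had 211 and 194 CPM with *Dyrk1a* shRNA, 187 and 184 with harmine, and 142 and 160 in the controls, again without overlap. Against control, *Dyrk1a* shRNA had 0.42 (standard error 0.18, adjusted p = 0.616, edgeR, and 0.18 with the trends removed) and harmine 0.30 (standard error 0.18). *Sharpin*, the other partner, had 35.6 and 40.7 CPM with *Dyrk1a* shRNA, 38.2 and 35.9 with harmine, and 51.5 and 43.0 in the controls, on the other side, with -0.36 for harmine against control (standard error 0.21), or -0.22 without control replicate 1. *Itch*, an E3 ligase that works with A20, had 64.7 and 59.9 CPM with harmine, against 43.3 and 49.0 in the controls (0.44, standard error 0.21, adjusted p = 0.928, edgeR).

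Transcripts known to be induced by NF-kB gave no direction that was common to the 3 comparisons. Of 38 such genes outside the family, 30 were tested, and 20 were above 0 for harmine against control (median 0.11), 14 for *Dyrk1a* shRNA against control (median -0.02) and 13 for *Dyrk1a* shRNA against harmine (median -0.09). At an unadjusted p under 0.05, 0 were higher and 2 lower in the first comparison (beside 2.22% and 3.07% of all genes), 1 and 0 in the second (beside 3.1% and 4.59%), and 1 and 3 in the third (beside 2.91% and 2.82%). Groups did not overlap for 9 higher and 4 lower genes in the first comparison, beside 16.4% and 15.9% of all genes. The counts were 8 and 3 in the second (beside 18.5% and 16.9%), and 5 and 11 in the third (beside 20.2% and 20.8%). The median of the third comparison had the other sign than that of the 9 genes there. *Tnf*, the cytokine, had 27.4 and 29.3 CPM with harmine, against 57.7 and 30.4 CPM in the controls (-0.67, standard error 0.29, adjusted p = 0.928, edgeR). Control replicate 1 was far above all others, and the fold change was -0.10 without it and -1.02 without control replicate 2. After all libraries were thinned to the size of the smallest, the fold change of *Tnf* was -0.24. *Cd83*, an activation marker, had 1.15 and 2.06 CPM with *Dyrk1a* shRNA, against 5.07 and 3.70 CPM with harmine (-1.37, standard error 0.57, adjusted p = 0.830, edgeR). It had 3.77 and 2.53 CPM in the controls, and these levels rest on few counts. *Bcl2l1*, which encodes the survival protein BCL-XL, had 28.0 and 35.7 CPM with *Dyrk1a* shRNA, against 20.0 and 24.3 CPM with harmine (0.53, standard error 0.23, adjusted p = 0.831, edgeR), and 29.5 and 35.5 CPM in the controls.

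**Figure D5:**
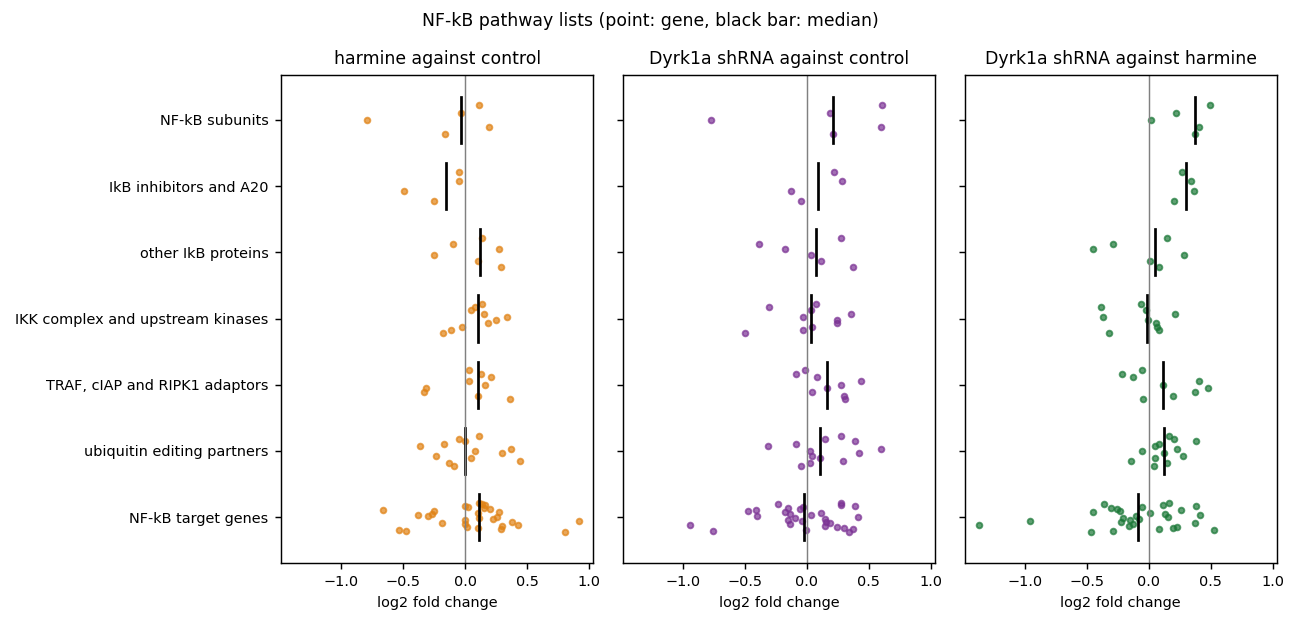
Log2 fold changes of the subunits, the inhibitors and 5 lists of pathway genes for harmine against control, *Dyrk1a* shRNA against control and *Dyrk1a* shRNA against harmine, with a point for each gene tested and a black bar at the median of its list. The medians of the subunits were -0.03, 0.21 and 0.37 in the 3 panels, and those of the NF-kB target genes 0.11, -0.02 and -0.09.

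Other cells express these genes too, B cells and dendritic cells *Relb* and *Nfkb2* among them. Of 10 B cell markers, 8 were found in the table and 6 were tested, and all 6 were below 0 for harmine against control (median -0.40) and above 0 for *Dyrk1a* shRNA against harmine (median 0.47). The summed level of the 8 found was 40.6 and 46.3 CPM with *Dyrk1a* shRNA, 32.2 and 35.1 with harmine, and 37.7 and 49.8 in the controls. *Pax5*, which defines B cells, had 1 count over the 6 libraries. Of 15 myeloid and dendritic cell markers, 7 were tested, of which 6 were below 0 for harmine against control (median -0.73) and 6 for *Dyrk1a* shRNA against control (median -0.65). The summed level of all 15 ranged over 222 to 295 CPM with *Dyrk1a* shRNA, 233 to 250 with harmine and 206 to 363 in the controls. Most of it came from *H2-Ab1* and *Cd74*, while *Csf1r*, *Itgax* and *Emr1* (the gene of F4/80) had 3 or 4 counts in all. The summed CD8 T and NK cell markers ranged over 37.5 to 43.6 CPM with *Dyrk1a* shRNA, 37.8 to 43.8 with harmine and 35.5 to 59.0 in the controls. Those of erythroid cells and platelets ranged over 18.0 to 24.2, 19.3 to 19.7 and 22.8 to 34.5 CPM in the same groups, with *Klra8* and *Hba-a2* at 0 in all libraries. The part of such cells in the levels of the 9 genes was not tested.

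Genes with the pattern most like that of the leading member in each comparison were found by the root mean square difference of log2 CPM, centred on the mean of each gene, over the 6 libraries. Among the 3 genes nearest to *Nfkb2* were *Adck3*, with a difference of 0.0604, and *Tead3*. *Adck3* had 12.3 and 8.84 CPM with *Dyrk1a* shRNA, 7.45 and 7.66 with harmine, and 6.28 and 7.60 in the controls, and like *Nfkb2* it was highest in *Dyrk1a* shRNA replicate 1 and lowest in control replicate 1. Nearest to *Relb* was *Nans*, with a difference of 0.0523, followed by *Psap* and *2310047M10Rik*. Nearest to *Nfkbib* was *Max*, with a difference of 0.0762, followed by *Ppp1r16b* and *1700037H04Rik*. With 6 libraries and 10607 genes, some genes lie near any pattern, and the likeness is a description.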

How the data were processed

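Polyadenylated RNA was primed with poly-dT, made into libraries by Nextera tagmentation and sequenced on a MiSeq. Tools that the submitters list are TopHat2 2.0.13, RSEM and DESeq. The authors mapped reads with TopHat on the mm10 build, and RSEM then gave expected counts for known genes, which were deposited as they were, not normalized. The version of RSEM and that of the annotation are left unnamed, being not given in the sources used here.

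Integers rounded from the deposited values were fitted with edgeR 4.0.16 in R 4.3.3 (TMM, low genes removed by filterByExpr at a minimum of 10 counts, robust quasi-likelihood, two-sided, adjusted by Benjamini-Hochberg, threshold 0.05), in a single model of 3 group means over all 6 libraries. Libraries hold 1096345 to 3747648 counts, so genes such as *Rel* rest on few reads. Levels are CPM on TMM-scaled library sizes, per kilobase of the longest coding transcript in GENCODE M21 (GRCm38, the assembly of mm10) where genes are compared. The fit was tested on data simulated for harmine against control.

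The 9 genes and all lists were chosen with earlier results of these data known. The text names the 9 genes, *Dyrk1a*, of each pathway list up to 4 genes with the smallest unadjusted p in any comparison, each with its values there, and the 3 genes most like the leading member of each comparison, except for a few items and 1 list, to which *Prkcq* and *Pdpk1* belong, that are not reported here. The lists are other IκB proteins, IKK and upstream kinases, TRAF, cIAP and RIPK1 adaptors, ubiquitin editing partners, NF-kB targets, and markers of B, myeloid and dendritic, CD8 T and NK, erythroid and platelet, and CD4 T cells, and some share genes, such as *Bcl3* and *Nfkbiz*. *Ighm*, *Igkc* and *Hbb-bt* were not matched. *Sirt2* and the marker genes were named for overlap and identity.

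Alternatives were the Wald test and the size factors of DESeq2 1.42.0, scaling to library size alone, each compared pair alone, a block for the replicate number, thinning to the smallest library, a minimum of 50 counts or none, and leaving out each library. Offsets that remove length and GC trends, from natural splines with 4 degrees of freedom, were added after seeing the data.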

Additional observations from a re-analysis of the deposited data

How the results depend on the processing

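None of the 9 genes passed the adjusted threshold with any library left out (162 values, smallest adjusted p 0.113) or under any of the other settings (236 values). The other settings turned the sign of 4 values, for harmine against control *Nfkbie* (0.046) and *Tnfaip3* (0.011) and for *Dyrk1a* shRNA against control *Nfkbib* (0.067) after thinning, and *Rela* (-0.080) with length and GC trends removed. Leaving out 1 library turned 13 of the 162 values of the 9 genes. The ranges that follow also include *Dyrk1a* and *Pdpk1*, which this count leaves out. For harmine against control the ranges that cross 0 were -0.017 to 0.39 for *Nfkb2*, -0.12 to 0.065 for *Rela*, -0.17 to 0.10 for *Nfkbie*, -0.26 to 0.23 for *Tnfaip3*, -0.12 to 0.39 for *Dyrk1a* and -0.50 to 0.14 for *Pdpk1*. For *Dyrk1a* shRNA against control they were -0.014 to 0.36 for *Rela*, -0.21 to 0.10 for *Nfkbia*, -0.34 to 0.070 for *Nfkbib*, -0.060 to 0.54 for *Nfkbie* and -0.45 to 0.069 for *Dyrk1a*, and between the treatments -0.14 to 0.22 for *Rel* and -0.0037 to 0.59 for *Nfkbie*. *Rel* gave no value at a minimum count of 50, after thinning, or in the fit of *Dyrk1a* shRNA and control alone.

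Over all genes, harmine against control had 1 call, or 20 with no filter, 3 with DESeq2, 0 at a minimum count of 50, with the replicate block or with the pair alone, and 1 to 291 with 1 library left out. *Dyrk1a* shRNA against control had 2, or 28 with no filter, 5 with the pair alone, 4 after thinning, 2 with the replicate block, and 1 to 439 with 1 library left out. *Dyrk1a* shRNA against harmine had 1, or 22 with no filter, 3 with library size alone, 4 with the pair alone, 2 with DESeq2, 0 with the replicate block or with trends removed, and 0 to 5 with 1 library left out. The cause of these shifts was not tested. No source ties libraries of the same number together, and their deviations correlated at 0.120, 0.0196 and 0.240 in the 3 pairs of groups, so the number was not taken as a pairing. Whether such libraries share a mouse or a day was not tested. The depth, down to 1096345 counts, limits the reach for *Rel*, whose 95% interval for harmine against control spans -1.90 to 0.31.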
